A study of Mus musculus with 2 samples.

Results

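The genes described here mark subfields of the hippocampus. They are 10 genes read as 2 groups, 6 dentate genes (Prox1, Dsp, Calb1, C1ql2, Dcx and Calb2) and 4 CA1 genes (Wfs1, Pou3f1, Fibcd1 and Mpped1), out of 19057 genes named on the array. The probes taken were those whose single gene symbol in the platform annotation is one of these names, and this gave 14 of 34885 named probes for 9 of the 10 genes. No probe is named for Dsp here. For 8 of the 10, 4 dentate and all 4 CA1 genes, a probe was detected on both arrays, and Calb1 was detected on neither.

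The hippocampus is built from a chain of cell layers. Granule cells of the dentate gyrus receive cortical input and send mossy fibres to CA3, CA3 pyramidal cells project to CA1, and CA1 sends the output onward. The dentate gyrus is also a place where new neurons are made in adult rodents. Each layer has a set of genes expressed more strongly there than in its neighbours, so that in RNA of the whole structure these genes follow both the amount of each layer in the tissue and the state of its cells. Fewer cells of a type and less RNA per cell cannot be told apart in such bulk RNA.

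The study compared RNA from hippocampus of CeCl3-treated mice with that of control mice, on 1 Illumina bead array each, after 90 days of dosing, and asked about learning, memory and hippocampal gene expression. The CeCl3 array held RNA of male ICR mice, an outbred stock, given cerium chloride into the stomach every day; its label names doses of 0.5, 1 and 2 mg per kg of body weight together, so the dose behind it is unknown. The control array held RNA of male ICR mice given purified water. Both are labelled with an age of 4 weeks, which is shorter than the dosing, and the sources used here do not give the number of mice behind each array.

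With 1 array per group no test across samples was possible, no p-value is given for a difference, and the number of arrays limits the precision. The 2 arrays lay on different BeadChips, so that chip and treatment cannot be told apart. Each array had 45281 probes, of which 17433 were detected on the CeCl3 array against 16434 on the control array at a detection p-value under 0.01, and the median probe was read from 42 beads on the CeCl3 array against 44 on the control array. One result goes against the labels. Xist, the RNA that silences an X chromosome in female cells, was read by 0 of its 4 probes on the CeCl3 array but by all 4 on the control array, while the labels call both groups male. Of 26 probes for Y-linked genes, the CeCl3 array detected 1, for Eif2s3y, and the control array 0.

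Read at its brightest probe, no dentate or CA1 marker differed between the arrays by more than the error over its beads. Among the 8 genes with a detected probe, 0 were 2-fold higher or lower and 0 had a 95% bead interval that left out 0. With the mean of a gene's detected probes in place of the brightest, the interval of Dcx left out 0, at 0.66 (0.22 to 1.11); the second Dcx probe in that mean was not well above background on the control array. Over the 9473 named genes detected on both arrays, 0.982% were past 2-fold and 22.4% had an interval that left out 0. These intervals cover the variation between beads of 1 array, not that between animals, and an interval that holds 0 does not show that the levels were equal. They take the bead errors as deposited, and whether these were scaled together with the signals is not known.

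**Figure D1:**
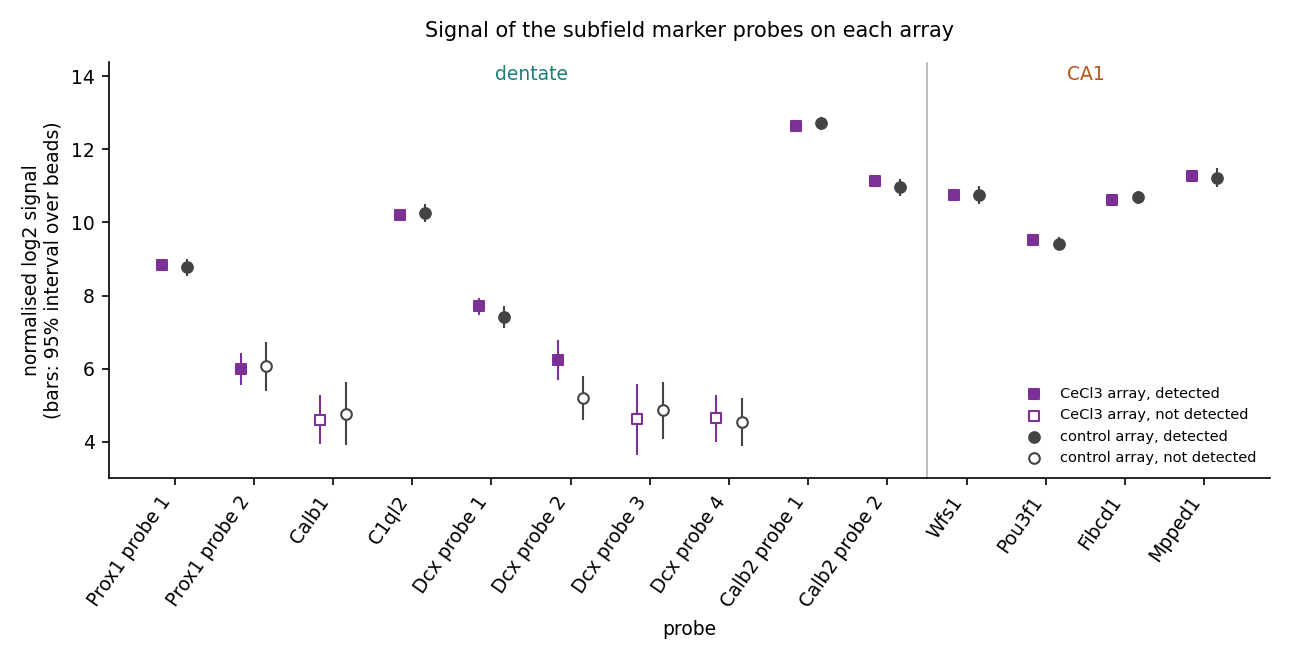
Normalised log2 signal of each of the 14 marker probes on the CeCl3 array (squares, left of each pair) and the control array (circles, right), with 95% bead intervals; open symbols are signals not detected, and levels compare between arrays within a probe, not between probes. The pairs lie level with each other for all CA1 probes, and the widest gap is that of the second Dcx probe, at 6.24 on the CeCl3 array against 5.20 on the control array.

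Prox1, a homeobox transcription factor that sets and maintains granule cell identity and is also present in some interneurons, had a deposited intensity of 444 ± 22.2 on the CeCl3 array against 425 ± 34.7 on the control array (bead standard error, over 44 and 51 beads). Its log2 difference, CeCl3 minus control, was 0.064 with a bead interval of -0.20 to 0.33. The interval spans folds of 0.871 to 1.25. A second Prox1 probe was near the limit of detection, with a detection p-value of 0.00855 on the CeCl3 array against 0.0128 on the control array, and intensities of 50.8 and 54.2. It passed the limit on the CeCl3 array alone but was the dimmer there, so no fold is given for it.

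C1ql2 encodes a secreted C1q-like protein that granule cells place at their mossy fibre synapses. Its intensity was 1175 ± 59.4 on the CeCl3 array against 1213 ± 104 on the control array (bead standard error, over 45 and 42 beads), a log2 difference of -0.047 (bead interval -0.33 to 0.23). Prox1 and C1ql2, the markers of mature granule cells that could be measured, thus lay on either side of 0 and averaged 0.0083 (-0.18 to 0.20).

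Calb1 encodes calbindin, a calcium buffer that is abundant in mature granule cells and is also made by superficial CA1 pyramidal cells and some interneurons. Its 1 probe was not well above background on either array, with intensities of -7.56 and 2.55 on the CeCl3 and the control array and detection p-values of 0.781 and 0.449. No fold can be given for Calb1. The reading says only that this probe gave no signal over background. Of the other markers of the labelled tissue, Prox1, C1ql2 and all 4 CA1 genes were detected on both arrays.

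Dcx, which encodes doublecortin, a microtubule-binding protein of young migrating neurons, had the largest difference of the 8 detected genes. Its brightest probe read 195 ± 16.5 on the CeCl3 array against 158 ± 17.7 on the control array (bead standard error, over 39 and 43 beads). The log2 difference was 0.29 (-0.08 to 0.66), or 1.22-fold, and 28.9% of the 9473 genes detected on both arrays had a larger absolute difference. So the reading of this 1 Dcx probe was high for this group of genes and ordinary for the array.

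The second Dcx probe passed the limit of detection on the CeCl3 array, at 63.1 ± 14.5 with a detection p-value of 0.00748. On the control array it read 21.2 ± 7.79, with a detection p-value of 0.118. Against the lowest log2 signal detected on the control array (6.14) the CeCl3 reading of 6.24 was higher by 1.07-fold. This bound leaves out bead error, and the bead standard error of that CeCl3 reading was 0.28 on the log2 scale. The measured difference of this probe, 1.04 (0.23 to 1.84), is the one member reading past 2-fold and the one whose interval leaves out 0, and it rests on a control signal that was not well above background. The other 2 Dcx probes were detected on neither array, with intensities of -6.35 and -4.81 on the CeCl3 array and 7.20 and -12.1 on the control array.

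Dcx lies on the X chromosome, and the Xist readings above concern the X chromosome too. The 291 X-linked genes detected on both arrays had a median log2 difference of -0.067, with 117 of 291 higher, where all 9473 genes had a median of -0.048, with 42.2% higher. What part a difference in sex has in the Dcx reading was not tested.

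Calb2 encodes calretinin, a calcium-binding protein that in the mouse hippocampus marks mossy cells of the dentate hilus, young granule cells and some interneurons, and that is also made in the thalamus and hypothalamus. It has 2 probes detected on both arrays. The brighter read 6427 ± 286 on the CeCl3 array against 6757 ± 421 on the control array (bead standard error, over 36 and 27 beads), a log2 difference of -0.071 (-0.29 to 0.15). The other read 2240 ± 123 and 1987 ± 164 on the CeCl3 and the control array, a difference of 0.17 (-0.11 to 0.45). The 2 probes of the same gene thus pointed in opposite directions. Across the 3114 genes with 2 probes detected on both arrays, the differences of a gene's probes lay 0.23 apart in the median and 0.67 apart at the 90th percentile.

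Genes of the thalamus were present on both arrays. Of the 6 listed, 4 were detected, with a summed intensity of 4518 on the CeCl3 array against 4608 on the control array, 2 of 4 higher (1 of 4 with the series matrix values, the mean of the detected probes or the probe of smallest bead error) and a median of -0.012. Of all 10416 named genes with a detected probe, 44.1% were higher. The transcription factor Tcf7l2 lay at -0.11 (-0.44 to 0.22) and the kinase Prkcd at -0.12 (-0.39 to 0.14). Lef1 and Plekhg1 were not detected. How much of the Calb2 signal came from tissue other than hippocampus was not tested.

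The 4 CA1 markers lay close to 0. Wfs1, which encodes wolframin, a membrane protein of the endoplasmic reticulum and a marker of CA1 pyramidal cells, read 1716 ± 79.1 on the CeCl3 array against 1723 ± 155 on the control array (bead standard error, over 46 and 31 beads). Its log2 difference of -0.0027 (-0.29 to 0.28) is smaller in size than that of 99.1% of the 9473 genes detected on both arrays. Pou3f1, a POU-domain transcription factor of CA1 neurons that is also made by cells of the oligodendrocyte lineage, read 718 ± 43.4 and 674 ± 40.7 on the CeCl3 and the control array, over 29 and 36 beads. Its difference was 0.089 (-0.15 to 0.33), the largest positive one of the CA1 genes.

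Fibcd1, a membrane receptor with a fibrinogen-like domain, read 1544 ± 74.3 on the CeCl3 array against 1632 ± 98.2 on the control array (bead standard error, over 31 and 33 beads). Its log2 difference of -0.077 (-0.29 to 0.14) was the lowest of the CA1 genes. Mpped1, a member of the metallophosphoesterase family enriched in CA1, read 2447 ± 126 on the CeCl3 array against 2396 ± 220 on the control array, over 24 and 35 beads, a difference of 0.034 (-0.26 to 0.33). Each CA1 gene has a range of its own that its bead interval allows. It spans folds of 0.820 to 1.21 for Wfs1, 0.902 to 1.25 for Pou3f1, 0.816 to 1.10 for Fibcd1 and 0.834 to 1.26 for Mpped1.

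**Figure D2:**
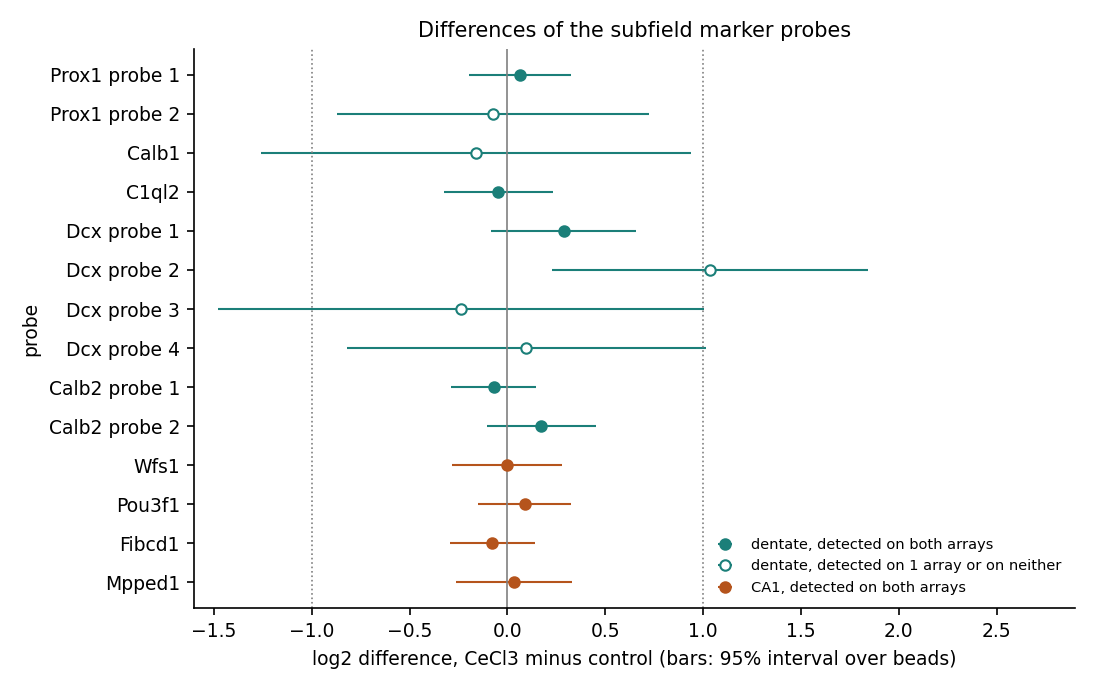
Log2 difference between the CeCl3 and the control array for each of the 14 marker probes, with 95% bead intervals; filled points were detected on both arrays, open points on 1 array or neither, and dotted lines mark 2-fold. Of the 14 intervals, 1 leaves out 0, that of the second Dcx probe at 1.04, which is an open point.

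The comparison that the 2 groups allow is whether dentate genes shifted against CA1 genes. They lay apart by less than bead error. The dentate genes had a median log2 difference of 0.0083 (2 of 4 higher) and the CA1 genes one of 0.016 (2 of 4 higher, or 1 of 4 in the series matrix, a second deposited table of the same arrays), where the median over all 10416 named genes with a detected probe was -0.038 and 44.1% were higher. Dentate minus CA1 was -0.0075 between the medians and 0.047 between the means. The bead interval of the difference between means was -0.15 to 0.24. As a ratio on the CeCl3 array relative to the control array, this interval runs from 0.904 to 1.18.

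Single pairs gave the same picture. Each of the 4 dentate genes was set against each of the 4 CA1 genes, and in 0 of the 16 pairs did the bead interval leave out 0. The pairs ranged from -0.16 for Calb2 against Pou3f1 to 0.36 for Dcx against Fibcd1, whose interval of -0.063 to 0.79 came nearest to leaving out 0. The dentate gene was the higher in 9 of 16 pairs, and 4 of those pairs held Dcx. Without Dcx the difference between the means was -0.029 (-0.23 to 0.17), and for Prox1 and C1ql2 alone it was -0.0024 (-0.23 to 0.23), so the sign of the mean difference rests on Dcx. The 16 pairs share their genes and are not independent.

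**Figure D3:**
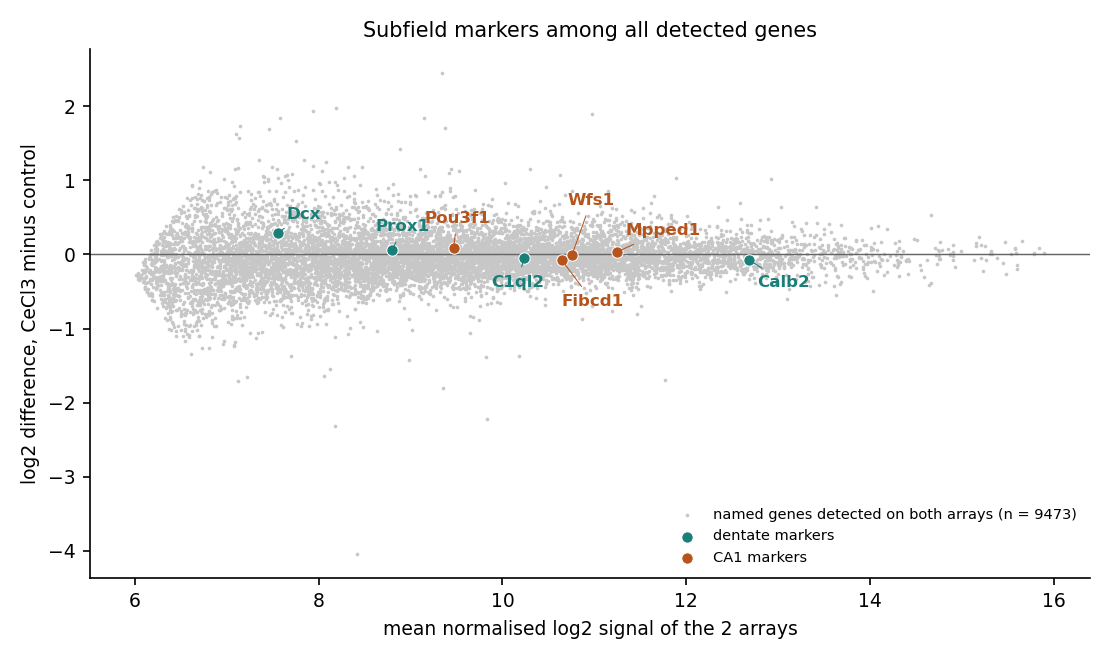
Log2 difference between the CeCl3 and the control array (vertical) against the mean log2 signal of both arrays (horizontal) for the 9473 named genes detected on both arrays, with the dentate markers in green and the CA1 markers in orange. The 8 markers lie inside the dense band around 0, between -0.077 and 0.29, and spread widens towards dim genes such as Dcx.

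Further genes of the same layers were listed for comparison. Of 11 further granule cell markers 5 were detected, 3 higher and 2 lower, with a median of 0.055 (0.039 with Glis3, detected on the CeCl3 array alone, at its bound). Dock10, a guanine nucleotide exchange factor, read 256 on the CeCl3 array against 120 on the control array, a log2 difference of 1.03 (0.45 to 1.60). Its probe was drawn from a cDNA clone. Pdzd2, a PDZ-domain protein, went the other way, with 64.6 and 109 on the CeCl3 and the control array and a difference of -0.66 (-1.23 to -0.079). Over all 10416 genes 10.5% had an interval above 0 and 14.8% one below 0, and 44.1% were higher. Of 7 names listed as further CA1 markers 3 genes were detected, all 3 slightly higher (2 of 3 with the series matrix values) with a median of 0.013, such as the receptor kinase Tyro3 at 0.013 (-0.24 to 0.27) and the matricellular protein Ccn3 at 0.094 (-0.68 to 0.86).

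Genes of young neurons other than Dcx were 2 higher and 5 lower of 7 detected, where 44.1% of all 10416 genes were higher. One of the 5, the collapsin response mediator gene Dpysl3, lay at -0.00021, and without quantile normalisation 3 of 7 were higher. Those detected, of 15 listed, had a median of -0.23 whether the 3 genes detected on 1 array were taken as measured or at their bound. These 3, Neurod1, Nes and Igfbpl1, passed the filter only through the array where they read higher, so the filter itself bears on their directions. Dpysl5, a collapsin response mediator protein of growing neurites, lay at -0.40 (-0.69 to -0.10), reading 352 on the CeCl3 array against 468 on the control array. The transcription factor Sox4 lay at -0.23 (-0.53 to 0.07). Neurod1, a helix-loop-helix factor of differentiating granule neurons, passed the limit of detection on the control array only. At its bound, which leaves out bead error, its CeCl3 reading was lower by 1.21-fold. The 2 higher genes were Sox11 and Igfbpl1. Sox11 lay at 0.023 (-0.16 to 0.21), and a second Sox11 probe detected on both arrays at -0.17 (-0.39 to 0.060). Igfbpl1 passed the limit of detection on the CeCl3 array only, reading 63.0 there against 57.1 on the control array. Its measured difference was 0.12 (-0.66 to 0.90), and its bound, which leaves out bead error, was 1.07-fold higher. The median of this list, -0.23, was opposite in sign to the difference of Dcx. With probes detected on both arrays alone 4 of these genes were left, 1 of them higher, with a median of -0.12.

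Mossy cells, for which Calb2 is a marker, are also marked by Drd2, the dopamine D2 receptor gene, which lay at -0.67 (-1.09 to -0.26). Of 5 listed mossy cell genes 3 were detected, all lower (1 of 3 higher with the series matrix values and without quantile normalisation), with a median of -0.040 that Ociad2 set at -0.040 (-0.32 to 0.24). Of all 10416 named genes with a detected probe, 44.1% were higher. Drd2 is also a gene of the striatum and midbrain, and the part of such tissue in its reading was not tested.

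Other subfields were read from lists of their own, where 44.1% of all 10416 genes were higher. CA3 genes were 3 higher and 3 lower of 6 detected, with a median of -0.024, and ran from the iodotyrosine deiodinase gene Iyd at -0.23 (-0.80 to 0.33) to Bok, a member of the Bcl2 family, at 0.68 (0.18 to 1.17). A second Bok probe detected on both arrays lay at 0.092 (-0.36 to 0.54). All 4 detected CA2 genes were lower, with a median of -0.26, among them the adhesion molecule Amigo2 at -0.31 (-0.70 to 0.07) and the AMPA receptor auxiliary subunit Cacng5 at -0.27 (-0.47 to -0.075). All 3 detected genes of the subiculum list were lower, with a median of -0.42, among them the corepressor Tle4 at -0.45 (-0.67 to -0.23) and fibronectin, Fn1, at -0.42 (-0.72 to -0.12). A second Tle4 probe detected on both arrays lay at -0.0025 (-0.43 to 0.43), and with the mean of the detected probes the median of this list was -0.22. The brightest gene of this list, Slc17a6, read 8530 on the CeCl3 array against 9653 on the control array, at -0.17 (-0.38 to 0.042). A second Slc17a6 probe lay at -0.052 (-0.24 to 0.13). Tle4 is also a gene of the deep neocortex and Fn1 one of blood vessels. All 7 detected neocortical genes were lower too, with a median of -0.14 and summed intensities of 11802 on the CeCl3 array against 12873 on the control array, though 1 of 7 was higher with the series matrix values, without quantile normalisation, with the mean of the detected probes and with the probe of smallest bead error. They were led by the sodium channel subunit Scnn1a at -0.92 (-1.45 to -0.39) and by Fezf2, a factor of deep-layer neurons, at -0.33 (-0.47 to -0.18). The ETS factor Etv1 had 3 probes detected on both arrays, at -0.037 (-0.38 to 0.30) for the brightest and at 0.0064 (-0.30 to 0.31) and 0.46 (0.14 to 0.78) for the others. The part of cortical or other tissue in the subiculum readings was not tested.

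Genes that excitatory neurons of all subfields share lay above 0 at their brightest probes. There all 5 detected of 7 listed were higher, 3 of them with an interval above 0, with a median of 0.22. Over all 10416 named genes with a detected probe, 10.5% had an interval above 0 and 44.1% were higher. Zbtb20, a zinc finger factor of hippocampal neurons, lay at 0.40 (0.09 to 0.71) and Neurod2, a helix-loop-helix factor of excitatory neurons, at 0.30 (0.061 to 0.54). Rbfox3 lay at 0.22 (0.046 to 0.40). The intervals of Slc17a7, at 0.21 (-0.030 to 0.44), and Camk2a, at 0.017 (-0.22 to 0.25), held 0. Second probes lay at 0.33 (0.10 to 0.56) for Rbfox3 and 0.29 (0.11 to 0.48) for Camk2a. A second Neurod2 probe, also detected on both arrays, pointed the other way at -0.40 (-0.96 to 0.15), and a second Zbtb20 probe lay at 0.53 (0.23 to 0.82). Both Zbtb20 probes were drawn from cDNA clones. With the mean of the detected probes 4 of 5 genes were higher. With the series matrix values the median of this list was 0.016 and 3 of 5 were higher, where the median of all genes was -0.13. The difference between this list and the subfield markers was not tested. Interneuron genes had a median of 0.0030, with 5 of 9 higher, or 2 of 9 with the series matrix values. They ranged from the neuropeptide Npy at -0.16 (-0.40 to 0.084) to Gad2, a GABA-synthesising enzyme, at 0.27 (-0.025 to 0.56), with the neuropeptide Sst at 0.23 (-0.09 to 0.56). Gad1, the other GABA-synthesising enzyme, lay at -0.13 (-0.36 to 0.096). Further probes drawn from cDNA clones were detected on the CeCl3 array alone. They lay at 1.30 for Gad1 and at 1.26 and 1.03 for Reln, the secreted protein reelin, each with an interval above 0. Their control signals did not pass the limit of detection, so these differences are not read as folds. The brightest Reln probe lay at 0.0030 (-0.20 to 0.21).

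**Figure D4:**
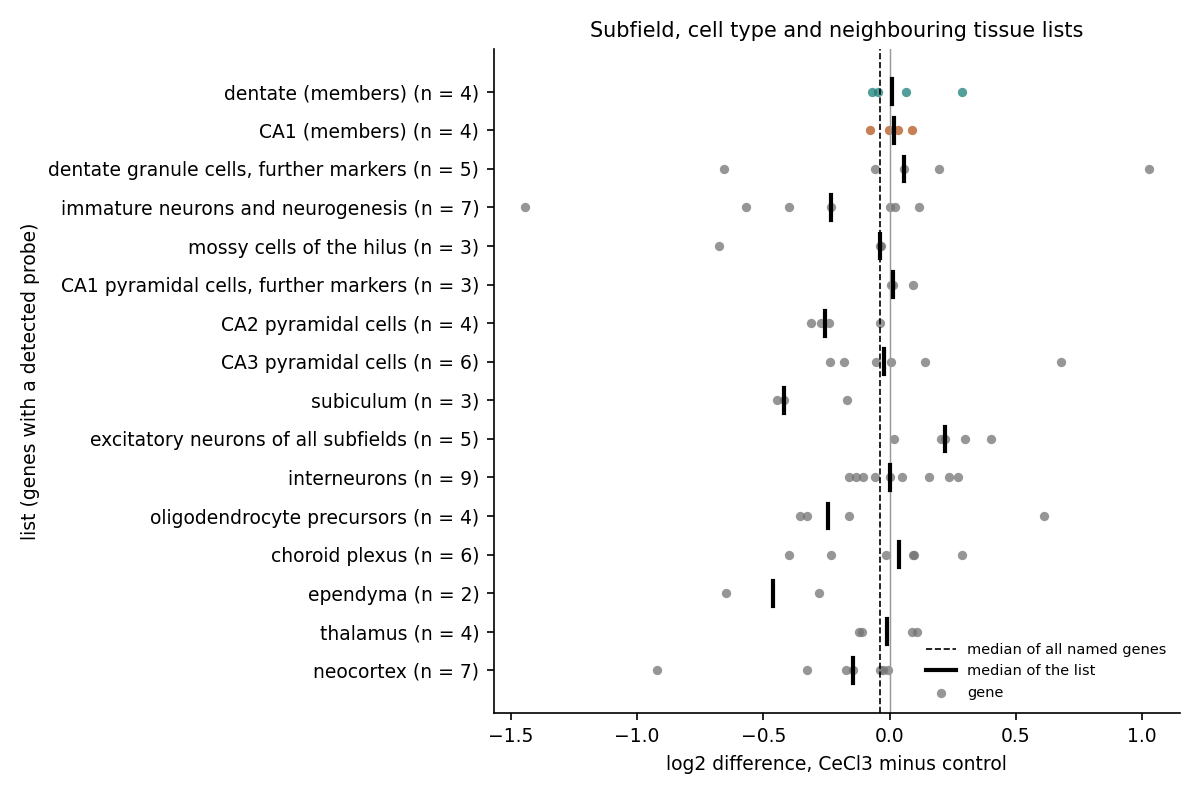
Log2 difference between the CeCl3 and the control array for the genes of each list that had a detected probe (points), with the list's median (black bar) and the median of all named genes (dashed line). The dentate and CA1 markers cluster at 0, with medians of 0.0083 and 0.016, while the median for excitatory neurons lies to the right. The medians for CA2, subiculum, immature neurons, oligodendrocyte precursors, ependyma and neocortex lie to the left, from -0.14 for neocortex to -0.46 for ependyma.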

How the data were processed

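Hippocampal total RNA was amplified, labelled with biotin and hybridised, per the labels' protocols. The submitters' processing notes name BeadStudio, without the settings used. The deposited intensity of each probe is a mean over beads, with the standard error over beads, the bead number and a detection p-value that is not adjusted, per the file headers. Deposited intensities are background-subtracted, since 27.1% lie below 0 on each array. Where the signal is over 10, their percentiles differ by at most 0.509% between arrays, so they appear normalised already, although the table is called non-normalised. The series matrix intensity values deposited beside them, with medians of 15.9 (CeCl3) and 14.2 (control), do not; how either table was scaled is known from its values alone.

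Signals were corrected with normexp in limma 3.58.1 (R 4.3.3, offset 16, negative controls inferred from detection p-values), quantile normalised and put on the log2 scale, which pulls differences of dim probes towards 0. A gene was represented by its brightest probe detected on at least 1 array. A bead interval is 1.96 standard errors on either side, from the bead errors as deposited, whose scaling is not known. A probe detected on 1 array alone has a bound, its signal against the lowest detected signal of the other array (5.87 for CeCl3, 6.14 for control). The bound takes the signal as read and leaves out its bead error. The steps were tested on simulated data whose noise was drawn from the control array's bead errors, with changes made in bright probes alone. That test cannot speak for dim probes, or for whether the bead errors hold the true variation. Names came from the platform annotation, and 34807 of 34885 probes matched RefSeq (GRCm38.p6) by gene number, which changed 0 symbols. Of 14 lists of other subfields, cell types and tissues the text names the 2 genes with the largest absolute difference among those detected on both arrays; a few others were named after their values were seen. The members, lists and rules were chosen with earlier results of these data known. Alternatives were other offsets, no normexp, no quantile step, the series matrix, other detection filters and other ways to represent a gene; leaving out Dcx and using Prox1 and C1ql2 alone were added after seeing the data.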

Additional observations from a re-analysis of the deposited data

How the results depend on the processing

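Each of the 8 detected members, both list medians and their difference were recomputed under 10 alternatives. Dentate minus CA1 ranged from -0.063 to 0.050 between the medians over 12 values (the 10 alternatives, without Dcx, and with Prox1 and C1ql2 alone), the dentate median from -0.062 to 0.023 and the CA1 median from -0.11 to 0.016, all within bead error of the values reported. Among members, Dcx moved to 0.66 with the mean of its detected probes, with a bead interval of 0.22 to 1.11 that left out 0, and Calb2 to -0.31 with the series matrix values; Dcx otherwise lay at 0.24 or above. Values near 0 changed sign: Mpped1 to -0.084 with the series matrix values, Prox1 to -0.0055 and Calb2 to 0.051 with the mean of probes. Of 140 values for other lists 134 stayed within bead error. With the series matrix values, the medians were 0.016 for excitatory neurons, -0.19 for interneurons, -0.16 for choroid plexus and -0.28 for neocortex, where the median of all genes was -0.13. With the mean of probes they were 0.16 for interneurons and -0.22 for subiculum. The causes were not tested. The counts of 289 genes 2-fold higher and 203 lower became 70 and 37 with an offset of 50, and 46 and 47 with probes detected on both arrays. The count lower was 324 with an offset of 1, 318 without normexp, 320 with a detection p-value under 0.05 and 325 with no filter on dim probes. Bead intervals could not be had for the series matrix, deposited without bead errors. No paired analysis was possible because each group has 1 array.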

Other observations

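Other cells and tissues showed no common direction. Of all 10416 named genes with a detected probe 44.1% were higher, and of the 9473 detected on both arrays 42.2%. Of 3 genes of oligodendrocyte precursors detected on both arrays, cells which also express Pou3f1, 1 was higher on the CeCl3 array, with a median of -0.33. Olig2 passed the limit of detection on the CeCl3 array alone but was the dimmer there, so no fold is given for it. The transcription factor Olig1 lay at -0.36 (bead interval -0.60 to -0.12), reading 3614 on the CeCl3 array against 4634 on the control array, while the proteoglycan gene Cspg4 lay at 0.61 (-0.20 to 1.42). Choroid plexus genes were 3 higher and 3 lower of 6 detected, with a median of 0.039, from Kl, the klotho gene, at -0.40 (-0.77 to -0.027) to the water channel gene Aqp1 at 0.28 (-0.23 to 0.80). Both detected genes of the ependyma, the lining of the ventricles, were lower, with Tekt1, a protein of motile cilia, at -0.65 (-1.03 to -0.27) and the dynein light chain Dynlrb2 at -0.28 (-0.69 to 0.14). A second Tekt1 probe lay at 0.013 (-0.84 to 0.87).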
